A study of Mus musculus with 2 samples.

Results

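The myogenic basic helix-loop-helix (bHLH) factor loci are the DNA around 4 mouse genes, Myod1, Myog, Myf5 and Myf6. Every DNase peak whose centre lay within 200 kb of an annotated start of one of these genes was taken, together with the footprints inside it. This gave 90 of 94295 peaks in replicate 1 and 108 of 123291 peaks in replicate 2, with 181 and 282 footprints inside them. Of these peaks, 32 in replicate 1 and 36 in replicate 2 lay at Myod1, 50 and 55 at Myog, and 8 and 17 at Myf5 and Myf6, which are neighbours and share one locus. DNase-seq maps sites where chromatin is open to cutting by the enzyme DNase I, and a footprint is a short stretch inside such a site that is cut less than its surroundings.

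The study holds 1 group of 2 libraries, both from the gastrocnemius, a calf muscle, of 4-day-old male B6CASTF1/J mice, and the labels speak of 3 males for each sample. B6CASTF1/J is a hybrid of C57BL/6J and CAST/EiJ, so a motif search in the reference genome reads the C57BL/6J letters and not those of the CAST/EiJ copy. The labels number the libraries as biological replicates and give both the same donor entry. There is no second condition, and no test between groups was possible. All comparisons below are between the 2 libraries, between loci, or with all peaks and all protein-coding genes. The sample is whole tissue: a weaker peak from fewer nuclei with an open site and one from less cutting per nucleus cannot be told apart.

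The myogenic bHLH factors switch on the muscle programme. They pair with E proteins and bind the E-box, CANNTG, of which CAGCTG and CACCTG are the forms most used by these dimers in muscle. Myf5 and Myod1 commit cells to the muscle lineage, and Myf5 also marks many satellite cells, the stem cells of muscle. Myog drives terminal differentiation into fibres, and Myf6, also called Mrf4, is the family member that persists most in mature fibres. Myod1 is known to have a core enhancer and a distal regulatory region upstream, the compact promoter of Myog carries E-box, MEF2 and MEF3 sites near the start, and the Myf5 and Myf6 pair is controlled by many enhancers spread over a long stretch.

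RefSeq promoter windows of GRCm38.p6, 300 bases around the start and written 5′ to 3′ along the gene, were at hand for 2 of the 4 genes, Myog and Myf5. They are shown because the peaks and footprints described below fall on them, in both libraries at Myog and in replicate 2 only at Myf5. The Myog window is chr1:134289754-134290053, plus strand, and the Myf5 window is chr10:107486085-107486384, minus strand. In both lines named motifs, capitals mark any match to an E-box (CANNTG), to the MEF3 site (TCAGGTT) or to the MEF2 consensus, on either strand. In the line named footprints, capitals mark the bases that lay in footprints of both libraries.
Myog promoter, motifs: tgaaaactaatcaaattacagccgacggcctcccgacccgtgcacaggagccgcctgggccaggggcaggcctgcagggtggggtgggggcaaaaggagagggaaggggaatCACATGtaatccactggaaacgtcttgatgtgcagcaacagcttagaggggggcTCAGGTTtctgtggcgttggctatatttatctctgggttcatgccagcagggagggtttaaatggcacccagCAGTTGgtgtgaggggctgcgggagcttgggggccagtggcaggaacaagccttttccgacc
Myog promoter, footprints: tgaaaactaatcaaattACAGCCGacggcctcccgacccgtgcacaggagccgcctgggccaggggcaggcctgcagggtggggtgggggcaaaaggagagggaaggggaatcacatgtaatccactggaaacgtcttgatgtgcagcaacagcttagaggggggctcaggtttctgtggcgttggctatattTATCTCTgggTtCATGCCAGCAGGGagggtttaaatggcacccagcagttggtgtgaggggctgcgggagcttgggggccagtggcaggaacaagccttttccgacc
Myf5 promoter, motifs: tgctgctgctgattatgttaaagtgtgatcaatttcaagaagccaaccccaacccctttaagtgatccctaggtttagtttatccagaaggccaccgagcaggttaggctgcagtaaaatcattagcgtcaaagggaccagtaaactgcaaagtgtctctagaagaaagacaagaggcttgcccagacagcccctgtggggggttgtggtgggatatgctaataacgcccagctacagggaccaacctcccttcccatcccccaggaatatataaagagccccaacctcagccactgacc

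In the Myog window the search found an E-box of the form CACATG at -123 bp from the annotated start, a MEF3 match at -69 bp and an E-box of the form CAGTTG at 3 bp. None of these matches touched a footprint in either library. No match to the MEF2 consensus was found in this window. Footprints of both libraries overlapped at 3 places in this window: at -218 to -212 bp, at -42 to -36 bp over the letters TATCTCT, and within a stretch from -32 to -18 bp. The letters ctatatttat differ from the MEF2 consensus at the last base only, and their end lies in the shared footprint at -42 to -36 bp. The Myf5 window held no E-box and no MEF3 or MEF2 match, while 72.3% of 32851 RefSeq promoter windows held at least 1 E-box, 4.07% a MEF3 match and 3.19% a MEF2 match. A missing match says only that these letters are not in this window.

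Away from the promoters of the 4 genes, 7 matches to CAGCTG or CACCTG lay inside peaks of both libraries and overlapped a footprint in both. One of them, at 42898 bp of Myog, lay in the promoter of another gene, Ppfia4. The 7 are 4 of 24 CAGCTG matches in such peaks, or 16.7%, against 17.5% over all peaks, and 3 of 15 CACCTG matches, or 20%, against 26.8%. A match is called protected here where a footprint touches it, as was so for these 7 in each library. They are shown on the plus strand of GRCm38.p6 with 10 bases on either side and the E-box in capitals.
Myod1 at 2768 bp: ggcagacctcCAGCTGtagggaattc
Myod1 at 167920 bp: gctgccatgcCACCTGctgacgggcg
Myog at -44488 bp: gcactccgccCACCTGtagccctcat
Myog at 17626 bp: ctggggctggCAGCTGcccaggcaaa
Myog at 30936 bp: cccaaggctgCAGCTGtcattgacag
Myog at 42898 bp: ggcagaatccCAGCTGggtctagcaa
Myf5 at 124308 bp: gtggcttggcCACCTGccatatggac

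Distances here and below run from the annotated start of the nearest of the 4 genes to the centre of the match or peak, and are positive downstream. In both libraries 5 of the 7 lay wholly inside a footprint. The match at 30936 bp of Myog ran past the footprint of replicate 1, and the one at 167920 bp of Myod1 past those of both libraries. In 4 of the 7 sequences the core was CAGCTG and in 3 it was CACCTG. By locus, 4 were at Myog, 2 at Myod1 and 1 at Myf5.

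The 4 promoters differed in strength. Strength is given as the authors' density for each peak and as its rank, the percentile of that density among all peaks of the same library, because densities of the libraries are on different scales. A promoter peak is one that comes within 500 bp of the start. Myod1 had the strongest promoter peak, with a rank of 86.1 in replicate 1 and 84.6 in replicate 2. Myog followed, with 65.2 and 69.5. Myf5 had no promoter peak in replicate 1 and one of rank 54.4 in replicate 2, and Myf6 had none in replicate 1 and one of rank 30.7 in replicate 2. In replicate 2 the order was Myod1, Myog, Myf5, Myf6. The gap between Myod1 and Myog was larger in each library than the difference between libraries at either gene. The order of Myf5 and Myf6 rests on replicate 2 alone.

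A peak at the promoter in each of the libraries was thus listed for 2 of the 4 genes, against 64.1% of 21853 protein-coding genes. Each of the 4 has a single annotated start, whereas a gene with several counted by the strongest peak at any of them. The shares and percentiles over coding genes given here do not allow for this. Promoters rich in CpG are open in most tissues, so the coding genes were also split into 10 equal classes by CpG ratio. This ratio is the CpG count over that expected from the C and G of the promoter, averaged over the starts of a gene. Myod1 and Myf5 fell in a class where 81.0% of genes were open at the promoter in both libraries, and Myog and Myf6 in one where 54.0% did. Among all coding genes the Myod1 promoter rank stood at percentile 59.3 in replicate 1 and 53.5 in replicate 2, and that of Myog at 46.1 and 45.1.

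**Figure D1:**
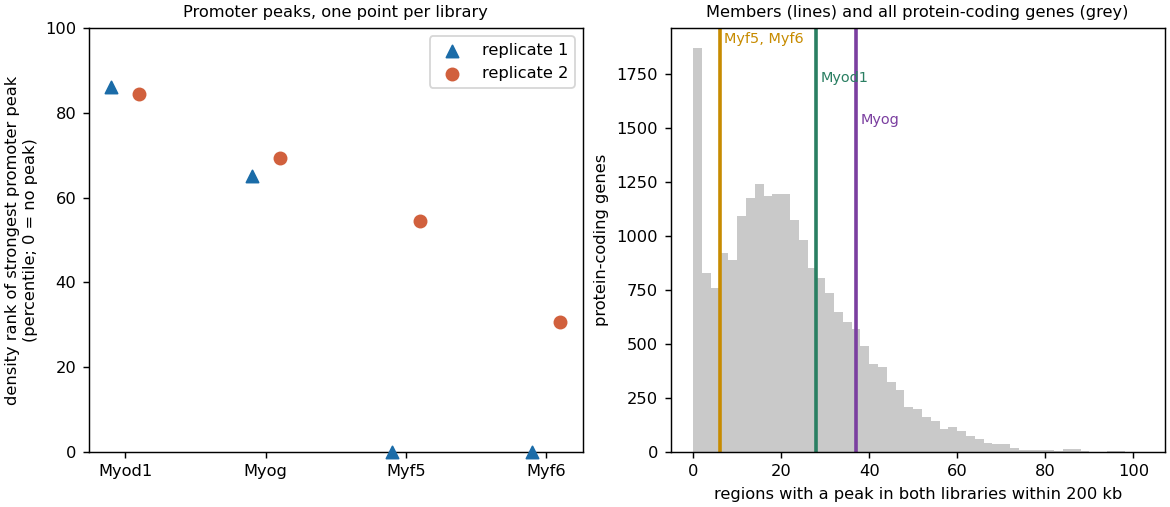
Left, the density rank of the strongest promoter peak of each gene, one point per library, where 0 means that no peak was listed. Right, the number of regions with a peak in both libraries within 200 kb, for the 4 genes as lines and for 21853 protein-coding genes as grey bars of width 2. Myod1 and Myog have promoter peaks in both libraries, Myf5 and Myf6 in replicate 2 only, and the lines stand at 37 regions for Myog, 28 for Myod1 and 6 for Myf5 and Myf6.

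The Myod1 promoter peak covered chr7:46376261-46376500 in replicate 1, where its density was 3.08 and it held 4 footprints. In replicate 2 it covered chr7:46376261-46376520, had a density of 1.54 and held 5 footprints. Both began at the same base and ended close to the start at 46376474. A further peak lay over the first part of the gene in both libraries, at 716 bp, with ranks of 65.4 and 75.1, and another at 1813 bp, with 55.1 and 55.2. The Myod1 gene was thus open in both libraries at its promoter and at 2 places inside its exons.

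The Myog promoter was covered by 2 abutting peaks in replicate 1, chr1:134289644-134289920 with a density of 1.15 and chr1:134289921-134290099 with a density of 1.26. In replicate 2 a single peak covered chr1:134289661-134290060, with a density of 0.820. Across the edge of the 500 bp limit another peak lay in both libraries, at 538 bp in replicate 1 with a rank of 59.6 and at 506 bp in replicate 2 with a rank of 58.5. One more, at 286 bp with a rank of 42.3, was listed in replicate 2 only. In both libraries a peak thus crossed the start of Myog, and a separate peak lay inside the gene.

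At Myf5 and Myf6 the base-by-base false discovery rate (FDR) gives the same contrast between libraries as the peak lists. The FDR and the peaks come from the same libraries, so they are not independent. Within 500 bp of the Myf5 start 0 bases in replicate 1 and 642 bases in replicate 2 of 1001 were listed with an FDR under 0.05. At Myf6 the counts were 0 and 347 bases. At Myod1 they were 402 and 804, and at Myog 516 and 691. Replicate 2 listed more such bases at all 4 starts, and at Myod1 and Myog replicate 1 listed them as well. In replicate 2 the lowest FDR was 1.09e-06 at Myf5 and 0.000889 at Myf6, against 5.26e-17 at Myod1 and 1.75e-06 at Myog.

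The libraries as a whole differed in the same direction. Replicate 2 had 123291 peaks and 335055 footprints, and replicate 1 had 94295 and 210189. Densities under 1 were whole multiples of a smallest step, within 0.1 of a step, and that step was 2.03 times as large in replicate 1 as in replicate 2; the files give no read totals, so the depth of each library is unknown. Among cell type markers, peaks in both libraries were found at the promoters of 7 of 8 skeletal muscle fibre genes, 4 of 4 fibroblast genes, 3 of 4 each of endothelial, tendon and satellite cell genes, and 2 of 4 Schwann cell genes, against 64.1% of 21853 protein-coding genes. None of the 4 macrophage and none of the 4 erythroid promoters had a peak in either library. The satellite cell list includes Myf5 itself, which is the gene without a peak in both. From which cells the peaks at the myogenic loci came was not tested.

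The number of open regions around the genes also set the loci apart. Peaks of the libraries that overlap by at least 1 bp were joined into regions. At Myod1, 28 of 40 regions had a peak in both libraries, 4 in replicate 1 only and 8 in replicate 2 only. At Myog, 37 of 67 did, with 12 in replicate 1 only and 18 in replicate 2 only. At Myf5 and Myf6, 6 of 19 did, with 2 and 11. Over all coding genes the median was 19 such regions within 200 kb (quartiles 10 and 30). Myog stood at percentile 84.4, Myod1 at 70.6, and Myf5 and Myf6, which share the same regions, at 16.9.

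These counts depend on how crowded a locus is. Myog has 10 other coding genes with a start within 200 kb, Myod1 has 3, and Myf5 and Myf6 have 1 each, which is the other of the pair. Among 1641 coding genes with 3 neighbours the median was 15 regions, and the 28 of Myod1 stood at percentile 90.5. Among 881 genes with 10 neighbours the median was 23, and the 37 of Myog stood at 84.6. Among 1301 genes with 1 neighbour the median was 10, and the 6 of Myf5 and Myf6 stood at 30.6. With the number of neighbours held equal, Myod1 stood above Myog in this 200 kb window. The percentiles of the genes come from different sets, and they were not recomputed for each library or under other settings.

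The share of peaks found in the other library also differed between the loci. At Myod1 87.5% of replicate 1 peaks and 77.8% of replicate 2 peaks overlapped a peak of the other library. The shares were 76% and 67.3% at Myog, and 75% and 35.3% at Myf5 and Myf6. Over all peaks they were 79.6% in replicate 1 and 60.8% in replicate 2. Myod1 was above these shares in both libraries. At Myog the unpartnered replicate 1 peaks were a block of 12 weak ones, described below, and the other 38 of 38 (100%) had a partner. Without a block of 5 in replicate 2, 37 of 50 peaks (74%) did. These peaks were left out at Myog alone and because they had no partner. The shares without them were thus bound to rise and do not rank the loci. The Myf5 and Myf6 locus was below the shares over all peaks in both libraries, but with 6 of 8 peaks in replicate 1 and 6 of 17 in replicate 2.

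Bases with an FDR under 0.05, which are not independent of the peaks, gave a like picture at the level of the window. Per kb of window there were 39.0 such bases in replicate 1 and 43.7 in replicate 2 at Myog, 19.8 and 25.9 at Myod1, and 3.92 and 10.8 at Myf5 and Myf6. In replicate 1 the value at Myog includes the block of 12 weak peaks, which held no such base in replicate 2. The genome as a whole had 9.80 and 13.5, values that do not allow for how crowded a locus is. Myod1 and Myog were above the genome in both libraries and Myf5 and Myf6 below it in both.

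**Figure D2:**
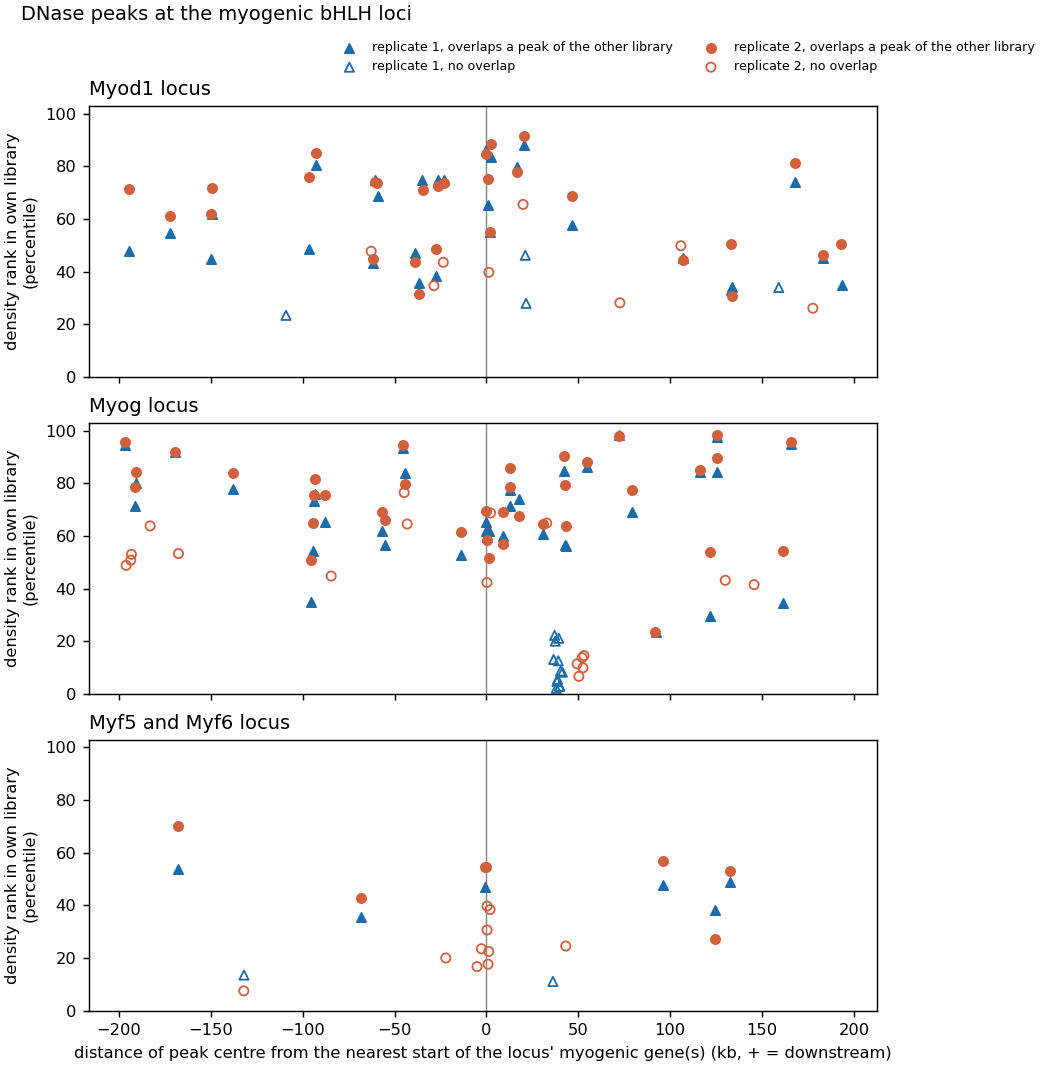
Each peak at the 3 loci by the distance of its centre from the nearest start (x, kb) and its density rank in its own library (y, percentile). Triangles are replicate 1 and circles replicate 2, filled where the peak overlaps one of the other library. Filled points dominate at Myod1, a column of open triangles of low rank stands at Myog between 36582 and 41327 bp, and open circles crowd the starts of Myf5 and Myf6.

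Of the 28 shared regions around Myod1, 13 were within 50 kb of the start, 4 of them within 10 kb, and 18 within 100 kb, and 16 of the 28 were upstream. By mean rank the strongest was at the promoter of Kcnc1, a voltage-gated potassium channel gene that starts 20023 bp downstream. Its peak, centred at 20366 bp, had ranks of 87.9 and 91.7. Next came a region just past the end of Myod1, chr7:46379101-46379300 at 2726 bp, with densities of 2.63 and 1.96 and ranks of 83.5 and 88.4. In both libraries these values were close to those of the Myod1 promoter, and in replicate 2 the region ranked above it. The other regions among the 5 strongest were at -92554 bp, in an intron of the inner ear gene Otog, with ranks of 80.6 and 85.2, and at 16866 bp, between genes, with ranks of 79.7 and 77.9.

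Upstream of Myod1 a group of shared regions outside coding genes lay between -38828 and -23014 bp. The one at -27408 bp lay in the noncoding gene 1700025L06Rik, and the one at -26164 bp within 1000 bp of a noncoding start. The strongest of the group were at -23014 bp, with densities of 1.73 and 0.940 and 4 and 5 footprints, at -26164 bp, with densities of 1.73 and 0.903, and at -34804 bp, with densities of 1.73 and 0.860. Their ranks ran from 74.7 to 74.8 in replicate 1 and from 70.9 to 73.5 in replicate 2, so the 3 did not differ beyond the spread between libraries. Between -23014 bp and the promoter no peak was listed in either library. Of the 28 shared regions, 10 had Myod1 as the nearest coding gene. Further off, 3 shared regions were centred in Ush1c and 2 in Otog upstream, both genes of the inner ear with no promoter peak in either library, and those from 106792 to 193242 bp downstream lay in introns of Sergef.

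The region past the Myod1 end is shown because it held both a match to the core of the CTCF motif and a CAGCTG E-box, each in a footprint in both libraries. CTCF is a zinc-finger protein that marks boundaries and loop anchors in chromatin. The stretch common to both libraries is chr7:46379141-46379280, on the plus strand of GRCm38.p6, with the CTCF match and then the E-box in capitals.
Myod1 at 2726 bp: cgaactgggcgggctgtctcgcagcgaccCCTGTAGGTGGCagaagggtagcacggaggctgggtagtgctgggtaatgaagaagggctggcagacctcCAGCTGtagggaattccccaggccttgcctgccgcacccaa

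The CTCF match lay in a footprint from 46379154 to 46379182 in replicate 1 and from 46379158 to 46379183 in replicate 2. The E-box lay in one from 46379223 to 46379247 in replicate 1 and from 46379223 to 46379248 in replicate 2. The edges of the protected stretches differed by at most a few bases between the libraries. At 16866 bp a CTCF match was again in a footprint in both libraries, while the CAGCTG at 16818 bp and the CACCTG at 16978 bp in the same region were in none. CTCF matches in shared peaks at Myod1 numbered 5, at -150030, -96322, 2702, 16856 and 46518 bp. Those at -96322, 2702 and 16856 bp were on the plus strand, and those at -150030 and 46518 bp on the minus strand.

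Around Myog the strongest shared regions belonged to other genes. The promoters of Tmem183a, at 72032 bp, of Adipor1, an adiponectin receptor gene, at 125362 bp, and of Klhl12, a ubiquitin ligase adaptor gene, at 165522 bp had ranks of 98.5 and 98.0, 97.5 and 98.3, and 94.7 and 95.6. In all, 8 of the 37 shared regions were in promoters of other genes, and 4 of the 37 had Myog as the nearest coding gene. By gene, 9 shared regions were centred in Ppfia4, 4 in Mybph, which encodes a myosin-binding protein and had no promoter peak, 3 in the adenosine receptor gene Adora1, 2 in Adipor1, and 1 each in Cyb5r1 and Chit1. At Myod1 1 of 28 was in another gene's promoter. Peaks above a rank of 90 numbered 6 and 7 at Myog, 0 and 1 at Myod1, and 0 and 0 at Myf5 and Myf6.

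Outside promoters, 3 shared regions of the locus ranked above 90 in both libraries. One at -196888 bp, whose nearest coding gene was Btg2, had densities of 6.26 and 3.99 and ranks of 94.5 and 95.6. Another at -169608 bp, in an intron of Chit1, had densities of 4.86 and 2.60 and ranks of 92.0 and 91.7, and one at -45598 bp had densities of 5.60 and 3.42 and ranks of 93.4 and 94.4. Close to the gene, the shared regions at 1144, 8817 and 9222 bp had ranks between 58.0 and 61.8 in replicate 1 and between 51.7 and 69.1 in replicate 2. The region at 12692 bp had ranks of 77.5 and 85.7 and the one at 12942 bp 71.4 and 78.7, above the Myog promoter in each library. Upstream, 1 shared region lay between -44498 bp and the promoter, at -13756 bp.

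The run of E-boxes downstream of Myog and the region at -44498 bp are shown because they hold several copies of the preferred E-boxes, of which only some were protected. The stretches common to both libraries, on the plus strand of GRCm38.p6, are chr1:134320855-134321038 and chr1:134245381-134245600. Capitals mark CAGCTG and CACCTG on either strand and, in the first line, the MCAT site, CATTCC, which is the site of TEAD factors.
Myog at 31000 bp: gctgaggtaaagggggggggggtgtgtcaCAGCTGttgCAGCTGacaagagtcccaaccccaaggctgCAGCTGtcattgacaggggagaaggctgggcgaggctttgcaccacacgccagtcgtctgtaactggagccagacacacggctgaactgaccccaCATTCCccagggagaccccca
Myog at -44498 bp: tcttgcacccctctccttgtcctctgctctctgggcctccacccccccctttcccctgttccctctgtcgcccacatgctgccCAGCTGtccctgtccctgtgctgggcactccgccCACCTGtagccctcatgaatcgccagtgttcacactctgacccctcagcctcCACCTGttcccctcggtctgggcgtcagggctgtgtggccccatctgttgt

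In the first, 3 CAGCTG copies lay within a short stretch. The copy at 30936 bp was in a footprint in both libraries, while those at 30898 and 30906 bp were in none. In the second, the CACCTG at -44488 bp was in a footprint in both libraries, and the CAGCTG at -44522 bp and the CACCTG at -44436 bp in none. At 17648 bp the CAGCTG at 17626 bp was protected in both libraries, the one at 17614 bp in replicate 1 only, and the one at 17582 bp in neither. Copies of the same letters in 1 open region thus had different footprint calls.

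Part of the Myog locus differed between libraries in one block. Between 36582 and 41327 bp, across Ppfia4, a gene of the liprin-alpha family, replicate 1 listed 12 peaks that had no partner in replicate 2. Their ranks ran from 2.09 to 22.2 and their densities from 0.196 to 0.486. Their FDR was low all the same, with the lowest value per peak between 1.03e-20 and 4.17e-07, against 3.16e-14 at the Myod1 promoter of the same library. All 12 were in the authors' shorter list too. In replicate 2 none of the 12 held a base with an FDR under 0.05. The 12 are all the regions at Myog that were found in replicate 1 only, and without them every replicate 1 peak at the locus had a partner. Replicate 2 had a block of its own further downstream, past the shared regions at the Ppfia4 promoter, with 5 unpartnered peaks of ranks 6.63 to 14.5 between 49360 and 53102 bp. Their FDR was higher, with the lowest value per peak between 4.34e-05 and 0.0242, and 2 of the 5 were in the shorter list.

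Of 13 regions at Myf5 and Myf6 with a peak in 1 library only, 6 lay in the genes or their promoters and 7 elsewhere. In replicate 2 peaks were listed at 1964, 1271, 354 and 84 bp of Myf5 and at -2745 bp, and at 880, 338, -5122 and -22112 bp of Myf6, none of them with a partner in replicate 1. The densities of these peaks ran from 0.267 at -5122 bp to 0.560 at 84 bp. The other unpartnered regions were weak, at 43158 bp of Myf5 and -132064 bp of Myf6 in replicate 2, with ranks of 24.6 and 7.53, and at 36178 bp of Myf5 and -131952 bp of Myf6 in replicate 1, with ranks of 11.1 and 13.5. The shared region nearest to the genes, chr10:107486821-107487060, was at -806 bp of Myf5, just outside the promoter limit. It had densities of 0.817 and 0.563 and ranks of 47.0 and 54.7. In replicate 2 its rank was close to the 54.4 of the Myf5 promoter peak beside it, whereas in replicate 1 only the region at -806 bp was listed.

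The other 5 shared regions were far from both genes. At 96354, 124354 and 132414 bp downstream of Myf5 they lay in introns of Lin7a, which encodes a scaffold protein. At -68374 and -167854 bp of Myf6 they lay in an intron and an exon of Ptprq, a receptor phosphatase gene of the inner ear. The region at -167854 bp was the strongest of the locus, with densities of 0.952 and 0.833 and ranks of 53.9 and 70.0. No peak of the locus ranked as high as the Myod1 promoter in either library.

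The region in Lin7a at 124354 bp is shown because it holds the protected CACCTG of this locus. The common stretch is chr10:107361741-107361880, on the plus strand of GRCm38.p6, with the MCAT site on its minus strand and then the E-box in capitals.
Myf5 at 124354 bp: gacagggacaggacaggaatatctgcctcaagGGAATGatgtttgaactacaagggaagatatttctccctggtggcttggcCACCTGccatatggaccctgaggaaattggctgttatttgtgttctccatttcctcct

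Its ranks were 38.2 and 27.1, which gave the lowest mean rank among the shared regions of the locus. The E-box was in a footprint in both libraries and the MCAT match in none. No CAGCTG lay in a shared peak of this locus.

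**Figure D3:**
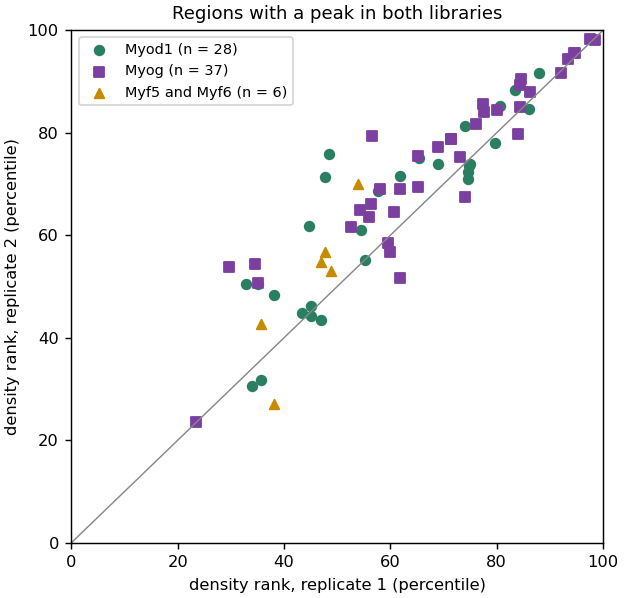
Density rank in replicate 1 (x) and replicate 2 (y) of each region with a peak in both libraries, by locus, with the line of equal ranks. The Myod1 and Myog regions spread up to ranks above 80, and the Myf5 and Myf6 regions stay at or below 70.0. At Myog 30 of 37 regions lie above the line, a share that was not computed over all shared regions.

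Where both libraries had a peak, the ranks were alike. The median difference in rank was 4.31 at Myod1, 5.86 at Myog and 8.40 at Myf5 and Myf6, and the largest was 27.5, at Myod1. The rank was higher in replicate 2 for 18 of 28 regions at Myod1, 30 of 37 at Myog and 5 of 6 at Myf5 and Myf6. The same share over all shared regions was not computed, and the ranks come from lists of 94295 and 123291 peaks. These counts are thus not shown to be a trait of the loci. The density was higher in replicate 1 by a median of 1.49 times at Myod1, 1.44 times at Myog and 1.45 times at Myf5 and Myf6, against 1.41 times over 77982 pairs of overlapping peaks genome-wide. Regions with a peak in 1 library only were weaker, with a median rank of 37.2 at Myod1, 20.5 at Myog and 22.5 at Myf5 and Myf6, against 62.7, 73.1 and 50.9 for the shared ones.

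Footprints were found in most peaks of the loci. At Myod1 90.6% of peaks in replicate 1 and 97.2% in replicate 2 held at least 1, at Myog 82% and 94.5%, and at Myf5 and Myf6 75% and 94.1%. Over all peaks the shares were 78.4% and 83.4%. Of the 181 footprints in replicate 1, 122 overlapped a footprint of replicate 2, and of the 282 in replicate 2, 126 overlapped one of replicate 1. The median length was 10 bp in replicate 1 and 9 bp in replicate 2.

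The share of peaks with a preferred E-box is set here beside that of all peaks, and a difference was not tested. Peaks without a partner in the other library, such as the weak ones across Ppfia4, are counted too. CAGCTG was present in 25.6% of these peaks in replicate 1 and 28.7% in replicate 2, against 21.7% and 21.8% of all peaks. CACCTG was present in 22.2% and 19.4%, against 14.9% and 14.3%. Letters were searched on both strands, and both forms are also counted within CANNTG. The counts over the 3 loci are small, from 20 to 31 peaks, and peaks that overlap between libraries share the sequence. At Myf5 and Myf6 CAGCTG was in 0 of 8 peaks in replicate 1 and 2 of 17 in replicate 2, and CACCTG in 2 and 4. Peak width and GC content were not taken into account.

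Protection of these E-boxes was about as frequent as over all peaks. Of 24 CAGCTG matches inside peaks of both libraries, 4 overlapped a footprint in both, 3 in one and 17 in neither. The share in both was 16.7%, against 17.5% over all peaks. Of 15 CACCTG matches, 3 overlapped a footprint in both libraries, or 20%, against 26.8% over all peaks. For any E-box the count was 16 of 89, or 18.0%, against 18.7%. The E-box shares at the loci were thus near the background.

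Other motifs gave different shares. All 7 CTCF matches in shared peaks, 5 at Myod1 and 2 at Myog, were in a footprint in both libraries, against 89.7% over all peaks, so that this share too was near its background. Of 33 SP/KLF matches (GGGCGG, the site of the SP and KLF factors), 13 were, or 39.4%, against 42.3%, with 12 of 24 at Myog, 1 of 8 at Myod1 and 0 of 1 at Myf5 and Myf6. MCAT had 1 of 9, at -26152 bp of Myod1, against 15.2% over all peaks, and the RUNX site TGTGGT had 0 of 6, against 17.2%. MEF2 and CArG had 1 match each and no footprint. MEF3, AP-1 and NFI had no match inside a peak of both libraries. At the Myog promoter the MEF3 match spanned the border of the 2 abutting peaks of replicate 1, which kept it out of this count.

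**Figure D4:**
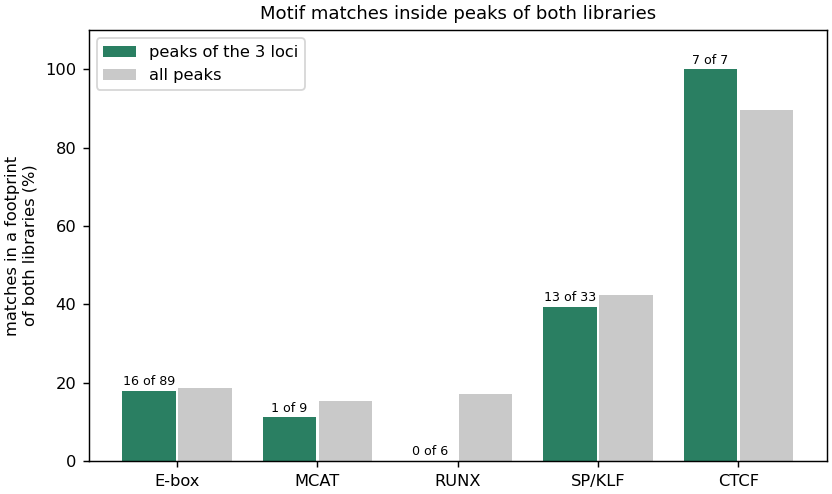
Share of motif matches inside peaks of both libraries that overlapped a footprint in both, for the peaks of the 3 loci (green) and for all peaks (grey), with the number of matches at the loci above each green bar. The E-box bars stand at 18.0% and 18.7%, and the CTCF bars at 100% and 89.7%.

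Partners and regulators of the family are set here beside the 64.1% of all coding genes with a promoter peak in both libraries. That share was 81.0% in the CpG class of Myod1. The CpG class and the number of starts of the listed genes themselves were not taken into account. The E proteins Tcf3, Tcf4 and Tcf12, the dimer partners, had promoter peaks in both libraries in 3 of 3 cases, with ranks of 96.5 and 96.9 at Tcf4 and 95.6 and 96.8 at Tcf3. Inhibitors of the family had them in 12 of 12. Id2, whose protein takes E proteins out of the dimers, had ranks of 97.7 and 97.6, and Hey1, a Notch pathway repressor, had 97.5 and 96.0. Among activators and co-activators of the 4 genes, 19 of 20 had them, led by Six5, a homeobox factor, with 98.2 and 98.2, and Mef2a, a MEF2 factor, with 97.6 and 98.6. The exception, Pax3, which acts upstream of Myf5 in the embryo, had a promoter peak in replicate 1 only, with a rank of 37.2.

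Well known targets of the family had promoter peaks in both libraries in 12 of 17 cases, which is near the 64.1% of all coding genes when read as a share. Chrnb1, an acetylcholine receptor subunit gene, had ranks of 94.3 and 95.2, and Cdh15, which encodes M-cadherin, had 91.3 and 89.8. Chrnd, another receptor subunit gene, and Mymk, which encodes the fusion protein myomaker, had none in either library, nor had Tnni1. The bHLH factors of other lineages had them in 11 of 20 cases. Scx, the tendon factor, had ranks of 81.4 and 86.9 and Tcf15 had 82.1 and 83.8, while the neural factors Neurod1 and Neurod2 had none.

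Genes with like values were sought over 4 percentiles, those of the promoter rank and of the number of peaks within 200 kb in each library. Nearest to Myod1 were Csgalnact1 and Impdh1, at 2.08 and 2.65 percentile points. Nearest to Myog were Cfap126 and Ndufa13, at 1.90 and 2.01. Prdm14, at 1.96, and then Myf6, at 4.26, were nearest to Myf5. For Myf6 they were Lamp5 and Gbp8, at 1.82 and 2.52. Within 5 points there were 11, 24, 5 and 14 of 21852 other genes for Myod1, Myog, Myf5 and Myf6 in that order. The likeness covers these 4 values over 2 libraries and nothing else.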

How the data were processed

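DNase-seq of 2 libraries of 1 group was used as deposited. Per the file listings, each library has a longer and a shorter peak list, a footprint list and a genome-wide list of cut rates. The deposited peak density is a signal per peak. The deposited footprint score is the constant 0.01 and was not used as a measure. The deposited p-value column holds an FDR per base stretch. The assembly is mm10, per the labels. For the aligner and the callers of peaks and footprints, name and version were not given in the sources used here. The longer peak list was used, ranks were taken within each library, and annotation was GENCODE vM21 on GRCm38.p6. A promoter reached 500 bp either side of a coding start, a distal region had its centre over 1000 bp from every start, a footprint counted if it lay inside a peak, and a motif match if it touched a footprint. Genes and regions were named by rule: the 4 genes, neighbour genes that hold a peak, from each list the 2 strongest promoters and up to 2 with none, per locus the 5 strongest shared regions, and the E-boxes protected in both libraries; other regions near the genes were added after their values were seen. The members and lists were chosen with earlier results of these data known. No p-values were computed, since there is 1 group. Python 3.11.15, pandas 2.3.3, pysam 0.24.0 and samtools 1.23.1 were used, and the interval, counting and motif functions were checked on simulated data.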

Additional observations from a re-analysis of the deposited data

How the results depend on the processing

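A total of 12 results were recomputed under up to 9 other settings, and 61 of 93 values stayed near those reported, that is within 1.5 times for a count and within 1 SD between the libraries for a rank or percentile. With the shorter peak list the regions in both libraries numbered 17 at Myod1 and 22 at Myog, 10 were nearest to one of the 4 genes, their median rank was 57.6, and 1 gene, against 2, had a promoter peak in both libraries. There the percentile by shared regions was 63.6 for Myod1 and 76.3 for Myog, and protected E-boxes numbered 4, against 7. Counting matches wholly inside a footprint gave 5. With windows of 50, 100 and 500 kb the shared regions numbered 13, 18 and 66 at Myod1, and 1, 3 and 12 at Myf5 and Myf6. At Myog they numbered 15 at 50 kb and 94 at 500 kb. The percentile of Myod1 was 86.8 at 50 kb and 77.8 at 100 kb, and that of Myog was 91.2, 92.5 and 91.4 at 50, 100 and 500 kb. With equal numbers of peaks the median rank of the shared regions was 62.3, against 66.7. A promoter limit of 1000 bp gave 3 genes with a promoter peak in both libraries, as it takes in the region at -806 bp of Myf5.

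Leaving out 1 replicate leaves the peaks of the other. The counts then ran from 32 to 36 at Myod1, from 50 to 55 at Myog and from 8 to 17 at Myf5 and Myf6, from 19 to 32 for regions nearest to one of the 4 genes, from 2 to 4 for genes with a promoter peak, and from 13 to 17 for protected E-boxes. The median rank ran from 56.2 to 61.3. Percentiles ran from 59.8 to 67.9 for Myod1, from 82.0 to 88.4 for Myog, and from 15.9 to 25.6 for Myf5 and for Myf6. In all of these settings Myf5 and Myf6 had the fewest regions and Myog the most. With 2 libraries of unknown depth, a peak missing in replicate 1 is not shown to be absent. The shares at Myog without the weak unpartnered blocks were computed after seeing the data.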
